A study of Homo sapiens with 6 samples.

Results

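The zinc finger genes of proximal chromosome 19 are the numbered ZNF genes whose start lies within the first 30 Mb of the chromosome, taken by symbol and position from the GENCODE 29 annotation of GRCh38. They made up 85 of the 18677 rows of the count table. The annotation holds 92 such genes, and the other 7 (ZNF177, ZNF209P, ZNF723, ZNF725P, ZNF728, ZNF833P and ZNF861P) had no row and were not analysed here. Of the 85, 80 are annotated as protein coding and 5 as pseudogenes (ZNF788P, ZNF812P, ZNF826P, ZNF849P and ZNF887P). A filter on low counts kept 83 of them for testing and removed ZNF560 and ZNF709, whose counts are given below.

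H1299 is an established human line of non-small cell lung cancer. Gene expression was measured by RNA-seq in 3 libraries of H1299 cells with the guide RNA hSETDB1 sg1 (SETDB1 knockout, KO), and in 3 libraries of H1299 cells with the guide Control sg2, the control. Cells of both groups were grown under puromycin. Each group rests on 1 guide, the labels do not say whether a line is 1 clone or a pool, and nothing says that the replicates were separate cultures, so p-values measure only the spread between these libraries, which may be technical.

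Most zinc finger proteins of these arrays join a KRAB domain to a row of DNA-binding zinc fingers. The KRAB domain recruits the co-repressor TRIM28, and TRIM28 brings SETDB1, which writes the repressive histone mark H3K9me3, so that many of these proteins silence transposable elements. The genes arose by repeated tandem duplication, and the zinc finger exons of many of them themselves carry H3K9me3, placed in part through ZNF274 and SETDB1.

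The genes fall into 3 dense arrays along the chromosome, here called the first (12 genes with a row, ZNF558 to ZNF846, chr19:8806170-9793180), the second (27 genes, starting at ZNF653, chr19:11483427-12640098) and the third (37 genes, ZNF101 to ZNF254, chr19:19668796-24129961). A further 8 lie nearer the end of the short arm, below 8.6 Mb, and ZNF333 stands alone between the second array and the third array. No numbered ZNF gene with a row lies between 25 and 30 Mb.

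Many of these genes share sequence in their promoters. RefSeq promoters of 300 bases (250 before and 50 after the gene start, GRCh38.p14) were available for 71 of the 85 genes. A set of 5 is shown 5′ to 3′ on the strand of the gene: ZNF208 and ZNF493, whose mRNAs were much higher in the SETDB1 knockout, ZNF85 and ZNF254 of the same array, which were not called, and ZNF699 of the first array, for contrast. Capitals mark the 8-base words CCAATCAG, which holds the CCAAT box, and TGTCACTC. ZNF208 is at chr19:22010894-22011193 on the minus strand, ZNF493 at chr19:21396883-21397182 on the plus strand, ZNF85 at chr19:20923001-20923300 on the plus strand, ZNF254 at chr19:24086937-24087236 on the plus strand and ZNF699 at chr19:9309789-9310088 on the minus strand. The RefSeq start of ZNF254 lies inside the longer GENCODE gene.
ZNF208: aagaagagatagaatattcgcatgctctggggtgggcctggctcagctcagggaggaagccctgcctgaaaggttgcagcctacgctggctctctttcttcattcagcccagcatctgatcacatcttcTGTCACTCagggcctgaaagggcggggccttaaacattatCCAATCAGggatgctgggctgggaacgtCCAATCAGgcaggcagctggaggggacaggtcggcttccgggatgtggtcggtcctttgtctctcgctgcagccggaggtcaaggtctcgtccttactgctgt
ZNF493: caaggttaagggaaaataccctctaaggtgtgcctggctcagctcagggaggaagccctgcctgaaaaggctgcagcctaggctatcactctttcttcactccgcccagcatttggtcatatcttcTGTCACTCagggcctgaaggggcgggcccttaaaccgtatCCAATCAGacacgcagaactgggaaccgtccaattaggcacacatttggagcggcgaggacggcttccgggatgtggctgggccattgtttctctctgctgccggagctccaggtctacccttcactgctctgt
ZNF85: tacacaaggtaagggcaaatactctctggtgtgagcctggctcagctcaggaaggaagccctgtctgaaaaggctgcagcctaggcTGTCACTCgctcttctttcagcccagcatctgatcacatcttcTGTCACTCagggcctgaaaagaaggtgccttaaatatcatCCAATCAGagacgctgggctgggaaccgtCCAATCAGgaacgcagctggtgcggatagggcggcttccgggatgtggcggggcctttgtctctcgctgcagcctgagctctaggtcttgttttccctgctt
ZNF254: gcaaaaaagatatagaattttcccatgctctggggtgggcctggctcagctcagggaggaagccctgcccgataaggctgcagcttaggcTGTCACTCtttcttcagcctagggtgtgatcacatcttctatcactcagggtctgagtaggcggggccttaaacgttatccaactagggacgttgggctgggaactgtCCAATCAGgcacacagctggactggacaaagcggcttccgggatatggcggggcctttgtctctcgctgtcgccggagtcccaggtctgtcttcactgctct
ZNF699: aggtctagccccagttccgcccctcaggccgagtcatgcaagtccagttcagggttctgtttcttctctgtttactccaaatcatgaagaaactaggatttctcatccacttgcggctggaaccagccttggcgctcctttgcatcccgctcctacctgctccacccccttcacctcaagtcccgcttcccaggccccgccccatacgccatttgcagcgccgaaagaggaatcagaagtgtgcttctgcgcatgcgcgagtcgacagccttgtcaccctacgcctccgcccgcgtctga

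Both words were picked after reading the promoters of these genes, and both strands were searched for each. CCAATCAG stood in 53 of the 71 promoters (74.6%), against 1083 of the 27234 promoters of all other genes (3.98%). TGTCACTC stood in 37 of the 71 (52.1%), against 334 of all other promoters (1.23%). Both words occurred together in 36 (50.7%), against 37 of all other promoters (0.136%). Among the 359 promoters of the other numbered ZNF genes, 8.64% held CCAATCAG and 3.9% held TGTCACTC. The words do not overlap each other. A match says only that these letters are present in the window.

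The words divided the arrays. CCAATCAG stood in 28 of 28 promoters of the third array, in 21 of 24 of the second, in 0 of 10 of the first and in 4 of 8 nearer the short-arm end. TGTCACTC stood in 25 of 28 promoters of the third array and in 12 of 24 of the second, and in none of the other 19. On the strand of the gene, CCAATCAG began at a median of 63 bases before the gene start and TGTCACTC at a median of 125 bases before it, and in the third array the places recurred from gene to gene. The ZNF208 promoter was 59.5% to 89.8% identical to the other 27 of the third array (median 83.9%), most of all to that of ZNF91. CCAATCAG stood in 75% of the promoters of genes called higher in the SETDB1 knockout and in 81.2% of those of genes not called, and TGTCACTC in 51.9% and 56.2% of the same promoters.

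**Figure D1:**
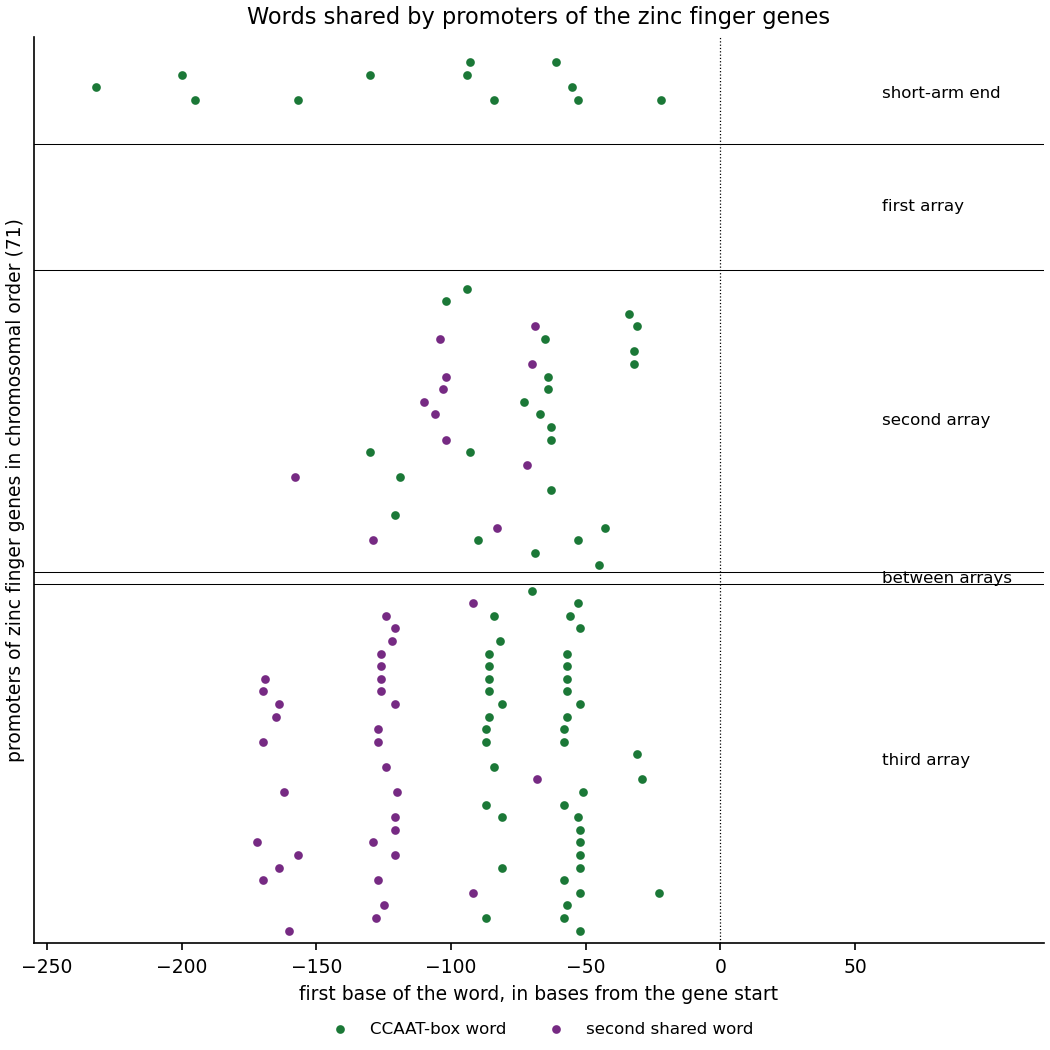
Position of the 8-base words CCAATCAG (green) and TGTCACTC (purple) in the 71 promoters, 1 row per gene in chromosomal order; the horizontal axis is the first base of the word in bases from the gene start (dotted line). In the third array the words form vertical columns, and in the first array neither word occurs.

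Levels are in CPM, the read count of a gene brought to a fixed library size, and a log2 fold change is SETDB1 knockout over control, given with its standard error (SE). A gene is called where edgeR's quasi-likelihood test gave a Benjamini-Hochberg adjusted p under 0.05 over all 17675 genes tested. Libraries had totals of 29532057 to 34320279 (KO) and 30729681 to 35941288 (control), so 1 count was 0.0282 to 0.0334 CPM. SETDB1 mRNA was only slightly lower, at 40.6, 36.1 and 39.1 CPM in KO libraries and 45, 44 and 41.6 CPM in control libraries. That log2 fold change of -0.17 with an SE of 0.06 (adjusted p = 0.0151, edgeR) was no longer called without KO replicate 2 (-0.131, adjusted p = 0.0896) or with library size alone (-0.132, adjusted p = 0.0605). Counts do not show where the guide cut or whether the protein was lost. Changes were widespread: 63.5% of all genes were called in one direction or the other. In bulk RNA, more cells with an mRNA and more of it per cell cannot be told apart. KRT8, KRT18 and VIM, which H1299 cells express, averaged 157, 332 and 2220 CPM in KO cells and 367, 599 and 2430 CPM in control cells. Among markers of blood, endothelial and fibroblast cells, PTPRC, CD3E, PECAM1 and CDH5 had no row, COL1A1 averaged 0.746 CPM in KO cells and 1.16 CPM in control cells, and DCN had 8 to 18 counts in KO libraries and 3 to 8 in control libraries. Their part in the results was not tested.

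Most of the zinc finger genes were higher in the SETDB1 knockout. Of the 83 tested, 62 were called higher (74.7%), against 31.9% of all genes tested. Only ZNF333 was called lower (1.2%), against 31.6% of all genes. The remaining 20 were not called. The median log2 fold change of the 83 was 0.39 (quartiles 0.20 and 0.75), against 0.00949 for all genes tested. In 63 genes every KO library lay above every control library, which held for 33.5% of all genes, and in 2 genes (ZNF333 and ZNF823) every one lay below, which held for 33.3%. ZNF441 and ZNF681 were called higher although their groups overlapped, while ZNF90, ZNF557, ZNF653 and ZNF823 were not called although theirs did not.

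Most of these differences were small. Of the 62 genes called higher, 36 differed by less than 1.5-fold, and 14 were at least 2-fold higher (16.9% of the 83, against 7.14% of all genes). None of the 83 was 2-fold lower, against 5.78% of all genes. The 14 include ZNF676, ZNF99 and ZNF564, which have a row in the count table only through their KO libraries. Of the 14, 11 lay in 1 run of the third array, described below, which was picked out after its values were seen. Outside that run, 3 of 69 tested genes were at least 2-fold higher (4.35%). Leaving out a run picked for its high values lowers this share, so it is not set against that of all genes. The share at least 2-fold higher was 15.2% for numbered ZNF genes of the rest of chromosome 19. It was also above 7.14% for the other genes of the same 30 Mb. Summed over all 85 genes, the level was 1657, 1643 and 1641 CPM in KO libraries and 1148, 1145 and 1110 CPM in control libraries. The means, 1647 ± 9.03 CPM for KO and 1134 ± 21.2 CPM for control (SD, n = 3 each), gave a ratio of 1.45. Of 78 tested protein-coding genes, 59 were called higher (75.6%), and of the 5 pseudogenes, 3 (60%), against 31.9% of all genes.

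**Figure D2:**
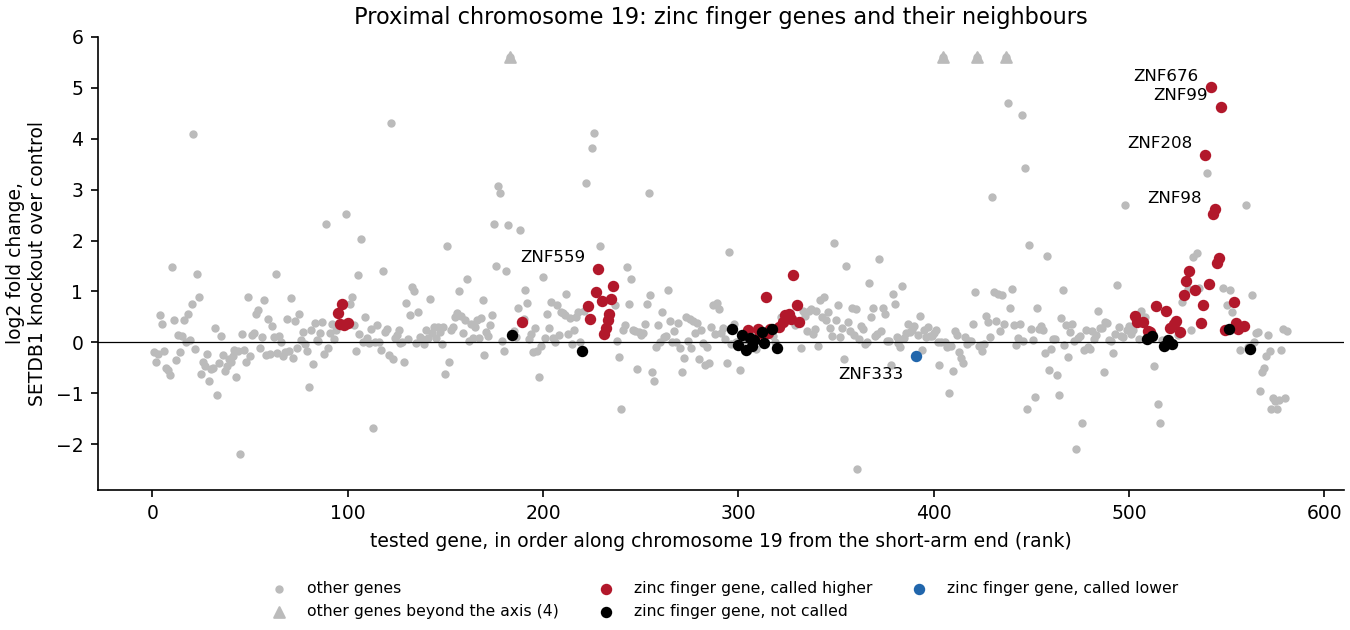
Log2 fold change (SETDB1 knockout over control) of tested genes of the first 30 Mb of chromosome 19, in chromosomal order. Coloured or black points are the zinc finger genes. Grey points are the other genes, those without a zinc finger symbol, with triangles for values beyond the axis. The zinc finger genes lie in blocks mostly above 0, with the highest values in the third array.

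The genes around them were also more often higher than lower. Of the 498 other genes tested on the same 30 Mb, 229 were called higher (46.0%) and 87 lower (17.5%), with a median log2 fold change of 0.18. The numbered ZNF genes of the rest of chromosome 19 had a median of 0.55, with 109 of 164 called higher and 37 lower, and those of other chromosomes a median of 0.07, with 105 of 252 higher and 71 lower. The median of the 25 nearest expressed genes without a zinc finger symbol on each side was then taken out of each gene's values. It was taken as a fixed value, so its own error does not enter these calls. After this, 54 zinc finger genes were called higher, against 30.6% of all genes, and 6 lower, against 26.2%. With 10 such genes on each side, 45 were called higher, all of them among the 62, against 30.6% of all genes, and 8 lower, against 26.1%.

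Of the 37 genes of the third array, 30 were called higher (81.1%, against 31.9% of all genes) and none lower (against 31.6%). Their median log2 fold change was 0.41. The 45 other genes tested in that window had a median of 0.29, with 26 called higher and 4 lower. The largest values stood in a run of 14 neighbouring genes in the third array, from ZNF708 to ZNF99 (chr19:21291160-22784107). The run was picked out after its values were seen, and its numbers are a description. All 14 were called higher, 11 of them at least 2-fold, with a median log2 fold change of 1.48 and a range of 0.38 to 5.02. Their summed level was 362, 383 and 378 CPM in KO libraries and 185, 182 and 168 CPM in control libraries, a ratio of 2.1 between the means. The other 71 genes summed to 1295, 1259 and 1263 CPM in KO cells and to 962, 963 and 942 CPM in control cells, a ratio of 1.33.

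ZNF676 (chr19:22179091-22215775, minus strand) had the largest difference. It stood at 5.93, 5.81 and 5.68 CPM in KO libraries and at 0.133, 0.252 and 0.141 CPM in control libraries, which is 178, 201 and 194 counts against 4, 8 and 5. The 3 control libraries were close to no signal and the 3 KO libraries lay far above them. Each row of the count table has a library with at least 11 counts, so ZNF676 has a row only through its KO libraries. The log2 fold change was 5.02 with an SE of 0.20, 32.4-fold (adjusted p = 3.93e-14, edgeR quasi-likelihood test).

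ZNF99 (chr19:22752183-22784107, minus strand), at the far end of the run, was rare in both groups. Like ZNF676, it has a row only through its KO libraries. It had 1.23, 1.53 and 1.32 CPM in KO libraries and 0.133, 0.0315 and 0 CPM in control libraries. The control level rests on 4, 1 and 0 counts, and 4 of these 5 counts come from control replicate 1. The log2 fold change was 4.63 with an SE of 0.43 (adjusted p = 1.26e-08, edgeR), and it was 6.19 without that library and 4.01 without control replicate 3.

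ZNF208 (chr19:21932958-22010949, minus strand), a gene with an unusually long row of fingers, was low in the control and well above that in KO cells. It reached 30, 26.8 and 29.4 CPM in KO libraries, against 2.54, 2.14 and 2.01 CPM in control libraries. The groups were far apart, with a log2 fold change of 3.69 with an SE of 0.09, 12.9-fold (adjusted p = 4.31e-17, edgeR). Per kb of exon it had 4.18 CPM in KO cells and 0.325 CPM in control cells, rank 21 and rank 74 among the 85 genes. AC003973.3, a transcript annotated inside the ZNF208 locus on the same strand, averaged 29.5 ± 1.54 CPM in KO cells and 2.95 ± 0.111 CPM in control cells (SD, n = 3 each), and reads of the pair may have been divided between them.

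ZNF729 and ZNF98 lie next to each other between ZNF676 and ZNF492. ZNF729 stood at 12.8, 11.1 and 12.2 CPM in KO libraries and at 2.40, 2.05 and 1.81 CPM in control libraries, a log2 fold change of 2.53 with an SE of 0.11 (adjusted p = 1.94e-13, edgeR). ZNF98 stood at 5.10, 5.89 and 5.38 CPM in KO libraries and at 0.834, 0.883 and 0.932 CPM in control libraries, a log2 fold change of 2.62 with an SE of 0.14 (adjusted p = 4.47e-12, edgeR). In both genes the groups were well separated, 5.79-fold and 6.15-fold.

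ZNF492 and the pseudogene ZNF849P follow. ZNF492 had 15.1, 18.5 and 16.9 CPM in KO libraries and 5.47, 6.28 and 5.42 CPM in control libraries, a log2 fold change of 1.56 with an SE of 0.09 (adjusted p = 1.37e-11, edgeR). ZNF849P had 1.80, 2.08 and 1.29 CPM in KO libraries and 0.634, 0.568 and 0.452 CPM in control libraries, a log2 fold change of 1.65 with an SE of 0.23 (adjusted p = 4.34e-06, edgeR). Neither gene's groups overlapped.

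These genes resemble their neighbours in sequence, which bears on how reads are assigned. Over the annotated transcripts, 41% of the 50-base words of ZNF98, 33.9% of those of ZNF849P and 33.3% of those of ZNF492 recur in a gene that does not overlap it, against 8.44% for ZNF676, 4.81% for ZNF208 and 3.83% for ZNF99. Only 5 of the 85 genes were above 10%, the other 2 being ZNF443 (32.6%) and ZNF799 (17.3%), and the median was 2.65%.

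The remaining 7 genes of the run averaged 8.32 to 57.4 CPM in control libraries and differed less. ZNF493 stood at 53.7, 50.8 and 53.8 CPM in KO libraries and at 20.9, 19.8 and 19 CPM in control libraries, 2.65-fold. ZNF738 was 2.29-fold higher, ZNF257 2.23-fold, ZNF429 2.05-fold, ZNF708 1.90-fold and ZNF43 1.67-fold. ZNF100, among the 4 genes with the highest mean CPM of the whole set, had 64.3, 82.5 and 76.8 CPM in KO libraries and 57.3, 60.3 and 54.7 CPM in control libraries, 1.30-fold (adjusted p = 0.000125, edgeR). Its first KO library lay just above the highest control.

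**Figure D3:**
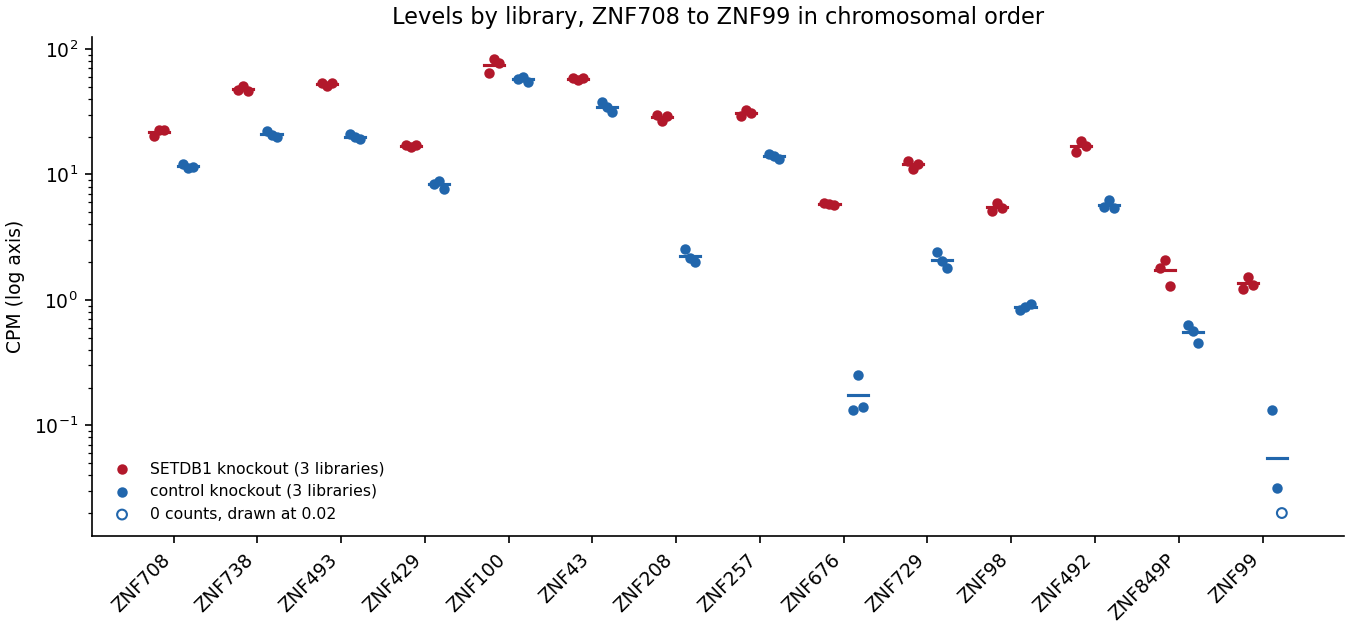
Level in CPM (log axis) of the 14 genes from ZNF708 to ZNF99 in each KO library (red) and each control library (blue); short lines are group means and the open circle is a library with 0 counts. The red points lie above the blue ones in all 14 genes, and the gap is widest at ZNF676, ZNF99 and ZNF208.

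The run was not made of zinc finger genes alone. All 6 other transcripts tested inside it were called higher as well. Of these, LINC00664 (on the same strand) and AC123912.1 overlap the ZNF429 locus, and AC003973.3 lies inside that of ZNF208. Their reads may have been shared with those genes. LINC00664 averaged 24.3 ± 2.57 CPM in KO cells and 7.57 ± 0.461 CPM in control cells (SD, n = 3 each), and the pseudogene AC010615.1 averaged 6.16 ± 0.585 CPM in KO cells and 2.97 ± 0.359 CPM in control cells.

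The other 23 genes of the third array differed far less. Of these, 16 were called higher, 7 were not called and none reached 2-fold, with a median log2 fold change of 0.27. ZNF91, a repressor of SVA elements named here for that role, stood at 30.8, 30 and 29.8 CPM in KO libraries and at 16.9, 18.1 and 17.3 CPM in control libraries. Its groups were far apart, with a log2 fold change of 0.79 with an SE of 0.06 (adjusted p = 7.73e-10, edgeR). ZNF93, a repressor of L1 elements named for the same reason, had 9.66, 10.8 and 11.3 CPM in KO libraries and 9.14, 8.83 and 9.12 CPM in control libraries. That log2 fold change of 0.23 with an SE of 0.08 (adjusted p = 0.0175, edgeR) was 0.298 (adjusted p = 0.00393) with the median of 25 neighbours on each side taken out and 0.0281 (adjusted p = 0.788) with 10.

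ZNF85 and ZNF626 of the third array were among the 4 genes with the smallest differences. ZNF85 had 21.1, 22 and 22.6 CPM in KO libraries and 23.9, 22.2 and 21.3 CPM in control libraries, a log2 fold change of -0.03 with an SE of 0.06 (adjusted p = 0.671, edgeR). ZNF626 had 6.67, 7.95 and 8.34 CPM in KO libraries and 7.01, 7.92 and 7.23 CPM in control libraries, a log2 fold change of 0.06 with an SE of 0.10 (adjusted p = 0.631, edgeR). The groups overlapped in both. ZNF254, at the far end of the array, had a log2 fold change of -0.13 (adjusted p = 0.121, edgeR). With the median of 25 neighbours on each side taken out, ZNF85 was 0.0327 (adjusted p = 0.69, edgeR). With that of 10 it was -0.238 (adjusted p = 0.00404, edgeR), a call of lower against that median, while its CPM groups overlapped.

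All 11 tested genes of the first array were called higher, against 31.9% of all genes, with a median log2 fold change of 0.71. The 33 other genes tested in that window had a median of 0.25, with 20 called higher and 5 lower. ZNF559 (chr19:9323772-9351162, plus strand) led with 50.4, 49.2 and 48.8 CPM in KO libraries, against 18.1, 17.9 and 18.4 CPM in control libraries. The spread within each group was small and the log2 fold change was 1.45 with an SE of 0.06, 2.73-fold (adjusted p = 3.3e-14, edgeR). The ZNF559 locus is overlapped by a ZNF559-ZNF177 read-through gene, so its reads may have been shared or dropped.

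ZNF266 and ZNF121 of the first array had the highest levels per kb of exon in both groups. ZNF266 had 101, 89.2 and 89.0 CPM in KO libraries and 54.4, 53.8 and 51.9 CPM in control libraries, a log2 fold change of 0.80 with an SE of 0.06 (adjusted p = 3.24e-10, edgeR). With 17.2 CPM per kb of exon it was the highest of the 85 genes in the SETDB1 knockout, and with 9.87 CPM per kb it was the second in the control. ZNF121, the highest per kb in the control, had 105, 99.6 and 103 CPM in KO libraries and 85.9, 85.9 and 80.6 CPM in control libraries. Its groups did not overlap, but the log2 fold change of 0.28 with an SE of 0.05 (adjusted p = 8.05e-05, edgeR) was no longer called with neighbours taken out, at 0.0658 (adjusted p = 0.289) for 25 on each side and 0.0408 (adjusted p = 0.52) for 10.

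ZNF562 stood at 70.0, 70.6 and 73.6 CPM in KO libraries and at 47.3, 50.2 and 48.2 CPM in control libraries, a log2 fold change of 0.56 with an SE of 0.05 (adjusted p = 1.62e-08, edgeR). ZNF699, whose promoter is shown above, was 1.99-fold higher, and ZNF846 was 2.15-fold higher. ZNF560, in the same array, had 13, 7 and 13 counts in the KO libraries and 0 in each control library. Against a floor of 3 counts over the control group it was at least 10.8-fold higher, and the filter kept it out of the main test. It was tested, and called higher, with no filter and with control replicate 1 or 2 left out.

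**Figure D4:**
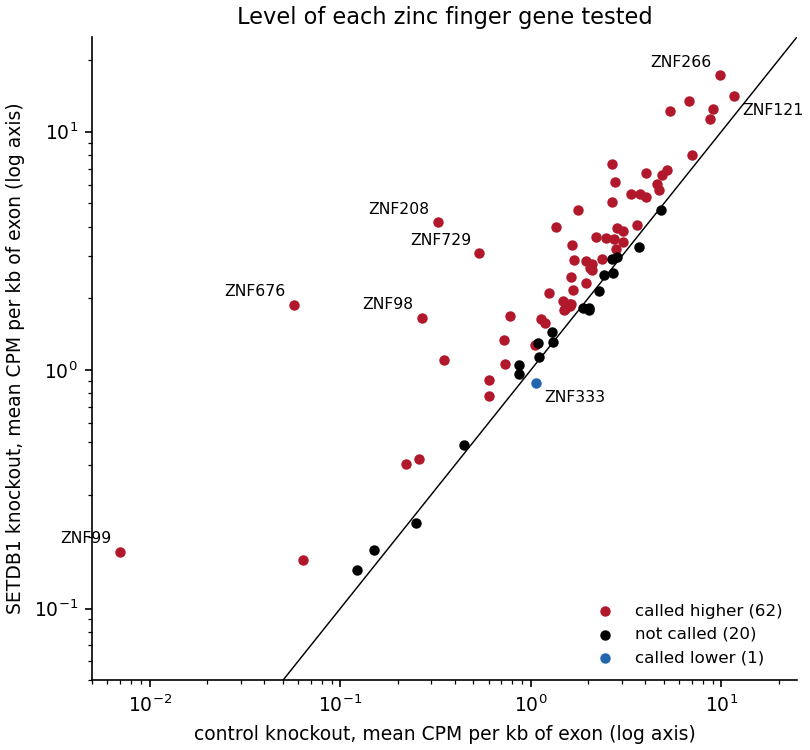
Mean CPM per kb of exon of each tested zinc finger gene in the SETDB1 knockout (vertical, log axis) against the control (horizontal, log axis), with the line of equal levels; red points were called higher, black not called and blue lower. Most points lie slightly above the line, and ZNF99, ZNF676, ZNF208, ZNF98 and ZNF729 lie far above it.

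The second array had the lowest median of the 3. Of 26 tested, 15 were called higher (57.7%, against 31.9% of all genes) and none lower (against 31.6%). The median log2 fold change was 0.26. The 62 other genes of that window had a median of 0.23, with 31 called higher and 6 lower. With 25 or 10 neighbours on each side taken out, 8 of the 26 were called higher, close to the 30.6% of all genes called higher under either setting. Lower calls numbered 4, against 26.2% and 26.1% of all genes, and the median was 0.00235 with 25 and 0.0216 with 10. ZNF564 was the largest difference at 0.633, 0.491 and 0.614 CPM in KO libraries and 0.334, 0.158 and 0.198 CPM in control libraries, a log2 fold change of 1.33 with an SE of 0.34 (adjusted p = 0.00178, edgeR). It rests on 57 counts in KO cells and 22 in the control. Like ZNF676, it has a row only through its KO libraries.

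ZNF439 and ZNF627 of the second array showed almost no difference. ZNF439 had 14.3, 12.7 and 12.1 CPM in KO libraries and 12.7, 13 and 12 CPM in control libraries (log2 fold change 0.05 with an SE of 0.08, adjusted p = 0.61, edgeR). ZNF627 had 7.23, 7.28 and 6.35 CPM in KO libraries and 6.47, 7.47 and 7.68 CPM in control libraries (log2 fold change -0.06 with an SE of 0.10, adjusted p = 0.619, edgeR). Both groups overlapped. Against the neighbour median, a fixed value in the fit, both were called lower (edgeR). They stood at -0.205 and -0.286 for 25 on each side (adjusted p = 0.0309 and 0.015) and at -0.195 and -0.30 for 10 (adjusted p = 0.0392 and 0.0112). ZNF709 had 8, 9 and 5 counts in the KO libraries and 6, 8 and 14 in the control libraries.

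Of the 8 genes nearer the short-arm end, 6 were called higher (75%, against 31.9% of all genes) and none lower (against 31.6%). Their median log2 fold change was 0.37, against 0.17 for the 214 other genes of that window. ZNF556 was the largest, with 12.7, 14.7 and 14 CPM in KO libraries and 8.71, 7.63 and 8.13 CPM in control libraries, a log2 fold change of 0.76 with an SE of 0.08 (adjusted p = 1.09e-07, edgeR). All KO libraries lay above all controls. ZNF333 (chr19:14689801-14733746, plus strand) went the other way, with 10.7, 9.88 and 10.1 CPM in KO libraries and 12.2, 12.9 and 12.1 CPM in control libraries. The groups did not overlap, and the log2 fold change was -0.28 with an SE of 0.07 (adjusted p = 0.00324, edgeR).

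Beyond the third array the chromosome differed in the other direction. Of 17 genes tested between 25 and 30 Mb, none was called higher and 9 were lower, with a median log2 fold change of -0.51. Among these, UQCRFS1, a subunit of mitochondrial complex III, averaged 113 CPM in KO cells and 242 CPM in control cells (log2 fold change -1.10), and URI1, a prefoldin-like protein, averaged 89.4 CPM in KO cells and 190 CPM in control cells (log2 fold change -1.09). These genes are among the 25 nearest neighbours of the third array, whose neighbour median was -0.16 to -0.07, against 0.00454 to 0.20 for the 10 nearest. Neither set was close by. For every gene of the third array, the 25 nearest on each side spanned 15.7 to 15.8 Mb and the 10 nearest more than 10 Mb. With spans this long, the 10 nearest also took in genes beyond 25 Mb.

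**Figure D5:**
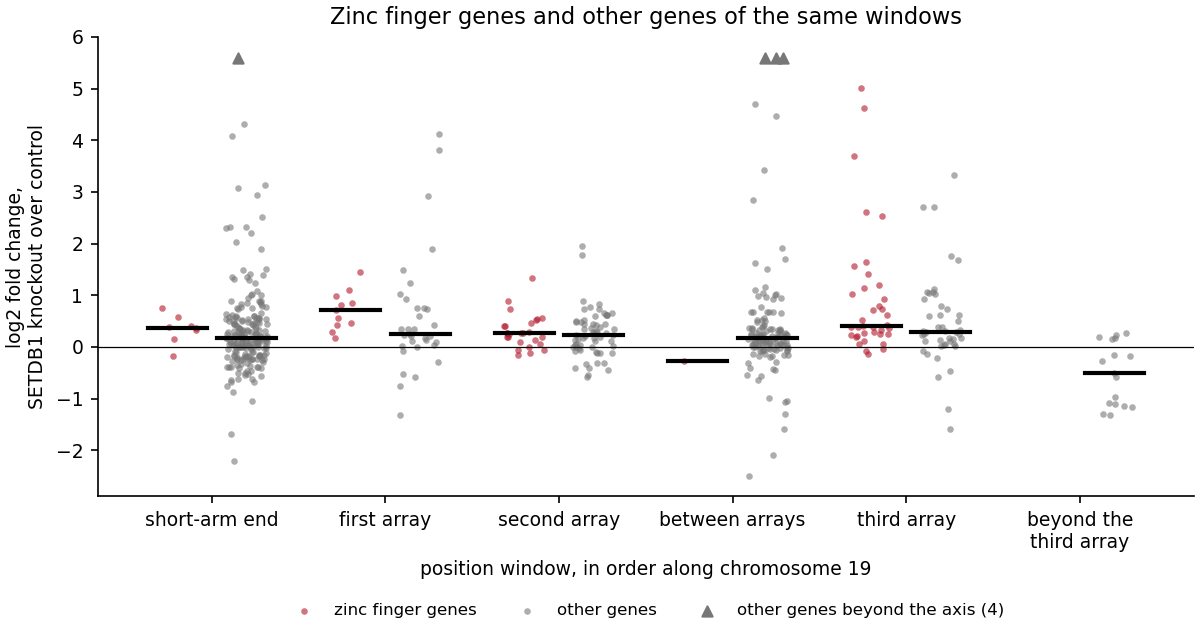
Log2 fold change (SETDB1 knockout over control) of zinc finger genes (red) and other genes (grey) in 6 windows along the first 30 Mb of chromosome 19, with a black bar at each median and triangles for 4 genes beyond the axis. The medians of zinc finger genes and of other genes are furthest apart in the first array and nearest in the second, leaving aside the window of ZNF333 alone.

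Of 25 genes listed for the TRIM28 and SETDB1 pathway, 11 were called higher (44%, against 31.9% of all genes) and 7 lower (28%, against 31.6%), none by 2-fold, with a median log2 fold change of 0.0761, against 0.00949 for all genes tested. SETDB1, given above, was among the 7. TRIM28, which joins KRAB domains to SETDB1, had 561, 575 and 596 CPM in KO libraries and 335, 325 and 321 CPM in control libraries, a log2 fold change of 0.82 with an SE of 0.05 (adjusted p = 6.21e-11, edgeR). ZNF274, which recruits SETDB1 to zinc finger genes, had 79.6, 69.4 and 73.3 CPM in KO libraries and 44.1, 45.8 and 40.3 CPM in control libraries, a log2 fold change of 0.77 with an SE of 0.06 (adjusted p = 1.53e-09, edgeR). Both lie at the far end of chromosome 19, where the 25 nearest genes on each side had medians of 0.68 and 0.71. With these taken out, TRIM28 was 0.145 (adjusted p = 0.0248) and ZNF274 was no longer called, at 0.0655 (adjusted p = 0.385). With 10 on each side, both were called, TRIM28 at 0.305 (adjusted p = 6.13e-05) and ZNF274 at 0.155 (adjusted p = 0.0388).

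EHMT2, a writer of the H3K9 mono- and dimethyl marks, and ATF7IP, a partner of SETDB1, had the largest rises of the list, 1.98-fold and 1.88-fold. PPHLN1, the HUSH complex subunit periphilin, and CBX3, an HP1 protein that binds methylated H3K9, had the largest falls, with log2 fold changes of -0.64 and -0.40, and their calls depended on the neighbours. PPHLN1 was -0.526 (adjusted p = 4.1e-08) with 25 neighbours on each side taken out and 0.0167 (adjusted p = 0.801) with 10. CBX3 was called under neither, at -0.00784 (adjusted p = 0.922) with 25 and 0.0102 (adjusted p = 0.897) with 10.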

How the data were processed

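The sample titles gave the groups and replicate numbers. Raw counts were deposited by the authors as 1 table with a row per gene. TopHat2, HTSeq, FastQC and the build GRCh38.p7 are listed in the submitters' processing notes. Settings, annotation and strand mode were not given in the sources, so reads of related, overlapping or antisense genes may be shared or lost. Every deposited row had a library with at least 11 counts. The control libraries of ZNF676, ZNF99, ZNF564 and ZNF560 stayed below this, so these genes have a row only through their KO counts. A gene as rare in KO cells would need such counts in the control to have a row.

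Identifiers were matched without version to GENCODE 29, which named 18595 rows, and 78 of the 85 genes had the same version. Counts were filtered (filterByExpr, 1002 genes removed), scaled by TMM (factors 0.976 to 1.02) and tested with robust edgeR 4.0.16 quasi-likelihood fits of SETDB1 knockout against control in R 4.3.3, with Benjamini-Hochberg adjustment over all genes tested. The biological coefficient of variation was 4.89%. Replicates differed by more than counting error (chi-square per degree of freedom 2.28 to 9.83), so none was counted as a copy.

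Genes named were the 8 largest called rises and the largest falls with groups that did not overlap and at least 1 CPM in the higher group, the largest rise and fall of each window, the 4 highest, the 4 smallest differences at 5 CPM or more, and genes removed by the filter; others are marked as chosen for their role or after their values. Of the pathway list, TRIM28, SETDB1, ZNF274 and the 2 largest rises and falls were named. The members, lists and windows were chosen with earlier results of these data known.

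Neighbours were the nearest tested genes above 3 on the log2 CPM scale and without a zinc finger symbol. Such a symbol begins with ZNF, ZFP, ZSCAN, ZKSCAN, ZIM, ZFX, ZFY, ZBTB, ZIK or ZIC. Windows for the other genes of the chromosome met at 8.6, 13, 19 and 25 Mb and in the gap between the first and the second array. The floor of 3 counts covers counting error only. The test was tried on counts simulated for this comparison (SETDB1 knockout over control) with 17001 genes. Changes of 0.25, 0.5, 1 and 2 on the log2 scale were recovered in 42.0%, 83.7%, 92.0% and 100.0% of cases. Of 16803 unchanged genes, 6 were called. Most genes were unchanged there, while 63.5% of all genes were called in the data. Whether these rates carry over to the data was not tested. The alternatives tried were scaling by upper quartile, by DESeq2 size factors or by library size only; 1 CPM in 3 libraries or no filter; DESeq2 1.42.0 and limma 3.58.1 voom; adjusted p under 0.01; the replicate block; each library left out; and 25 or 10 neighbours on each side taken out. Finger number and KRAB content were not analysed here. Some of the markers looked at are not reported here.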

Additional observations from a re-analysis of the deposited data

How the results depend on the processing

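The number of zinc finger genes called higher was 62, and it was 45 to 64 under the alternatives, with 55 to 62 when 1 library was left out. Under all 17, 42 genes were called higher. The genes tested varied with the filter and the libraries kept, so ZNF560 entered some of these counts. Of 441 alternative values for 26 named genes, 420 kept their direction and their side of the threshold and 11 changed sign. Of the rest, which kept their direction, 7 lost the call and 3 gained it. Among the sign changes, ZNF439 gained a call with 25 and with 10 neighbours, and PPHLN1 and CBX3 lost theirs with 10. The cause was not tested.

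Genes called lower numbered 6 with 25 neighbours on each side taken out, 8 with 10 and 1 to 2 with 1 library left out. The median log2 fold change was 0.431 with library size alone, 0.422 with upper-quartile scaling, 0.299 with 25 neighbours taken out, 0.218 with 10 and 0.376 to 0.396 with 1 library left out. These 2 scalings move the median of all genes by less than 0.1.

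Nearer the short-arm end, 1 gene was called lower with 25 and 1 with 10 neighbours taken out, and 0 to 1 with 1 library left out. The median there was 0.409 with library size alone, 0.4 with upper-quartile scaling, 0.268 with 25 neighbours, 0.274 with 10 and 0.344 to 0.385 with 1 library left out. In the first array the median was 0.638 with at least 1 CPM in 3 libraries, 0.502 with 25 neighbours, 0.469 with 10 and 0.673 to 0.775 with 1 library left out. In the second array, 8 genes were higher and 4 lower with 25 or with 10 neighbours, the medians were 0.00235 and 0.0216, and with 1 library left out 0 to 1 was lower. In the third array, 2 were lower with 10 neighbours and 0 to 1 with 1 library left out, and the median was 0.488 with 25 neighbours and 0.318 with 10.

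Most sign changes were of genes not called. ZNF439 was -0.205 with 25 neighbours, -0.195 with 10, and -0.0187 to 0.0978 with 1 library left out. ZNF626 was -0.148 with 10 neighbours and -0.0133 to 0.141 with 1 library left out, and ZNF627 was -0.129 to 0.00325. ZNF85 was 0.0076 with library size alone, 0.0327 with 25 neighbours and -0.0754 to 0.00957 with 1 library left out. The called falls of CBX3 and PPHLN1 also changed sign with 10 neighbours, to 0.0102 and 0.0167.

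The replicate numbers did not pair the libraries: same-numbered deviations correlated at 0.157, -0.0866 and 0.0616. With the number as a replicate block, 63 zinc finger genes were called higher. Depth limits ZNF560, ZNF99, ZNF676 and ZNF564, which had few counts in the control, and ZNF709, which had few in both groups.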
